A study of Mus musculus with 6 samples.

Results

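Wnt ligands, their receptors and the secreted proteins that modulate them were followed across 3 groups of mouse gonadal cells on 6 microarrays, each hybridised with Cy5-labelled RNA of 1 sample. The members were all probes whose gene symbol names a Wnt ligand, a Frizzled receptor (Fzd), Lrp5 or Lrp6, a secreted Frizzled-related protein (Sfrp), a Dickkopf protein (Dkk), Wif1, an R-spondin (Rspo) or one of the receptors Lgr4, Lgr5 and Lgr6. This rule found 54 of 26423 probes, which stood for 47 of the 19084 named genes on the array. They comprised 19 ligands, 12 receptors, 9 secreted inhibitors and 7 genes of the R-spondin axis. Of these, 39 passed a filter on low signal and were tested. The other 8 (Dkk1, Fzd4, Lrp6, Rspo4, Wnt3a, Wnt8a, Wnt8b and Wnt10b) lay under the 30th percentile of the array on all 6 arrays.

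Wnt proteins are lipid-modified ligands that bind Frizzled receptors together with the co-receptors Lrp5 and Lrp6, which stabilises β-catenin and switches on TCF/LEF target genes, or they act through β-catenin-independent routes with receptors such as Ror2. Sfrp proteins and Wif1 bind the ligands outside the cell, and most Dickkopf proteins act on the Lrp co-receptors. R-spondins bind Lgr receptors and keep the ubiquitin ligases Znrf3 and Rnf43 from removing Frizzled receptors from the surface. In the gonad, Rspo1 and Wnt4 are known for promoting ovarian development, and Sfrp1 and Sfrp2 together are needed for normal male sexual development in mice.

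The study compared 3 groups of cells from ICR mice, with 2 arrays each. The PGC colony arrays held colonies picked from a culture of gonadal cells pooled from 67 embryos at E11.5, labelled primordial germ cells. The GSC colony arrays held colonies picked from a culture of testicular cells pooled from 80 mice between birth and P2, a cell type that the labels spell as glandular stem cells. In both colony groups all cells of the organ had been plated on laminin (200 ng/cm2) with epidermal growth factor (10 ng/ml), insulin, transferrin and selenium for 7 days in 5% O2. The CD49f+ sorted arrays held testicular cells pooled from 100 mice between birth and P2, taken by magnetic sorting for CD49f (integrin α6, Itga6) and never cultured. The labels call these sorted cells CD49f+ GSC, purified, in physiological hypoxia, with no oxygen value given. The comparison of colonies with sorted cells therefore changes culture, the stated oxygen condition, colony picking and sorting at once. For PGC colonies the age and organ of the donors change along with them. The parts of all these cannot be told apart. PGC and GSC colonies differ in the age and organ of the donors under one culture protocol. The labels give no sex for the embryos. Separate preparations are not stated for arrays within a group, and the p-values rest on the difference between those arrays, which may be technical.

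Levels are normalized log2 intensities and are compared only for the same probe between groups. A change means an adjusted p under 0.05 in limma's moderated test over all 15459 genes tested. The median deposited intensity was 541 to 587 on PGC colony arrays, 558 to 606 on GSC colony arrays and 393 to 406 on CD49f+ sorted arrays. The cell type labels were set against marker genes. Of 16 germ cell markers, 10 had signal above the 30th percentile on at least 1 array in PGC colonies, 12 in GSC colonies and 11 in CD49f+ sorted cells. Dppa3, Tfap2c, Sall4 and Ret were under it in every group, Dazl also in PGC colonies, and Zbtb16 in PGC colonies and sorted cells. Of 12 germ cell markers tested, 1 was higher and 5 lower in PGC than in GSC colonies, where 15.1% of all genes passed. In PGC colonies 1 was higher and 5 lower than in sorted cells (46.0% of all genes passed). In GSC colonies 5 were higher and 3 lower than in sorted cells (47.1% of all genes passed). Between PGC and GSC colonies the largest shifts were a fall of at least 6.19-fold in Zbtb16, a fall of at least 4.87-fold in Dazl and a rise of 2.40 on the log2 scale in Id4. Zbtb16 passed the filter only through the GSC colony arrays, so its calls are not independent of the filter. Dazl passed it only through the GSC colony and sorted arrays, so the same holds for its fall in PGC colonies. Itga6, the sorted antigen, was at 12.34 and 12.44 in PGC colonies, 11.86 and 11.76 in GSC colonies and 12.26 and 12.10 in sorted cells, a difference of 0.21 between PGC colonies and sorted cells that did not pass (limma adjusted p = 0.20). In GSC colonies Itga6 was lower by 0.37 than in sorted cells (limma adjusted p = 0.042).

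Markers of other cells moved strongly with the groups. The summed linear level of 12 fibroblast and mesenchyme markers was 269600 to 283000 in PGC colonies, 520700 to 536100 in GSC colonies and 22780 to 25790 in CD49f+ sorted cells, with Col1a1 and Fbln1 dim in all 3. The sum of 12 Sertoli cell markers was 242500 to 256000 in PGC colonies, 319400 to 332100 in GSC colonies and 787600 to 833000 in sorted cells. Linear sums weigh the brightest probes most. Between PGC and GSC colonies, 1 of 12 Sertoli markers was higher and 4 lower (41.7% against 15.1% of all genes). Of 10 fibroblast and mesenchyme markers tested, 2 were higher and 6 lower there (80.0%). For 9 macrophage and leukocyte markers the sum was 11480 to 13560 in PGC colonies, 4139 to 4554 in GSC colonies and 124700 to 126900 in sorted cells, and Adgre1, C1qb and Tyrobp were dim on both GSC colony arrays. For 8 endothelial markers it was 8020 to 8472 in PGC colonies, 18570 to 18690 in GSC colonies and 49580 to 52320 in sorted cells. Between PGC and GSC colonies 3 of these 8 passed (37.5% against 15.1% of all genes), 1 higher and 2 lower, and Emcn alone differed by -2.77. Leydig cell markers, 4 in number, summed to 16430 to 17000 in PGC colonies, 19370 to 19960 in GSC colonies and 55410 to 58840 in sorted cells. For 5 smooth muscle and myoid markers it was 36980 to 38790 in PGC colonies, 75630 to 76380 in GSC colonies and 5308 to 5399 in sorted cells. The 16 germ cell markers summed to 9998 to 10040 in PGC colonies, 11640 to 12780 in GSC colonies and 10440 to 11350 in sorted cells. The part of these shifts in the Wnt differences was not tested. In such bulk samples a change in how many cells of a type were present and a change in RNA per cell cannot be told apart.

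Of the 39 tested members, 11 were higher and 4 lower in PGC than in GSC colonies, which is 38.5% of members against 15.1% of all genes tested, of which 7.08% were higher and 7.98% lower. In PGC colonies against CD49f+ sorted cells, 12 members were higher and 7 lower, 48.7% against 46.0% of all genes (22.8% higher and 23.2% lower), a share near the background. In GSC colonies against sorted cells, 13 were higher and 12 lower, 64.1% against 47.1% of all genes (22.5% higher and 24.5% lower). The medians over the members stayed near 0, at 0.12, 0.07 and -0.01 on the log2 scale in these 3 comparisons, against 0.01, -0.02 and -0.01 over all genes. Placing dim genes at their bounds, as defined for Wnt2, left these medians as they were. Without the filter, 14 of 47 members passed between PGC and GSC colonies (12.0% of all genes did), 18 between PGC colonies and sorted cells (38.0%) and 25 between GSC colonies and sorted cells (38.9%). No test was made of whether the members' shares exceed the background. With the arrays left unscaled, where the median gene was 0.42 higher in PGC colonies and 0.47 higher in GSC colonies than in sorted cells, the members split into 17 higher and 5 lower in PGC colonies and 18 higher and 6 lower in GSC colonies. Over all genes under that setting, 49.0% were higher and 11.9% lower in PGC colonies, and 52.9% higher and 11.2% lower in GSC colonies. Without PGC colony replicate 2, 7 members rather than 11 were higher in PGC than in GSC colonies, and over all genes 621 rather than 1095. The 2 comparisons with sorted cells share the sorted arrays, and each is given by its own values below.

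**Figure D1:**
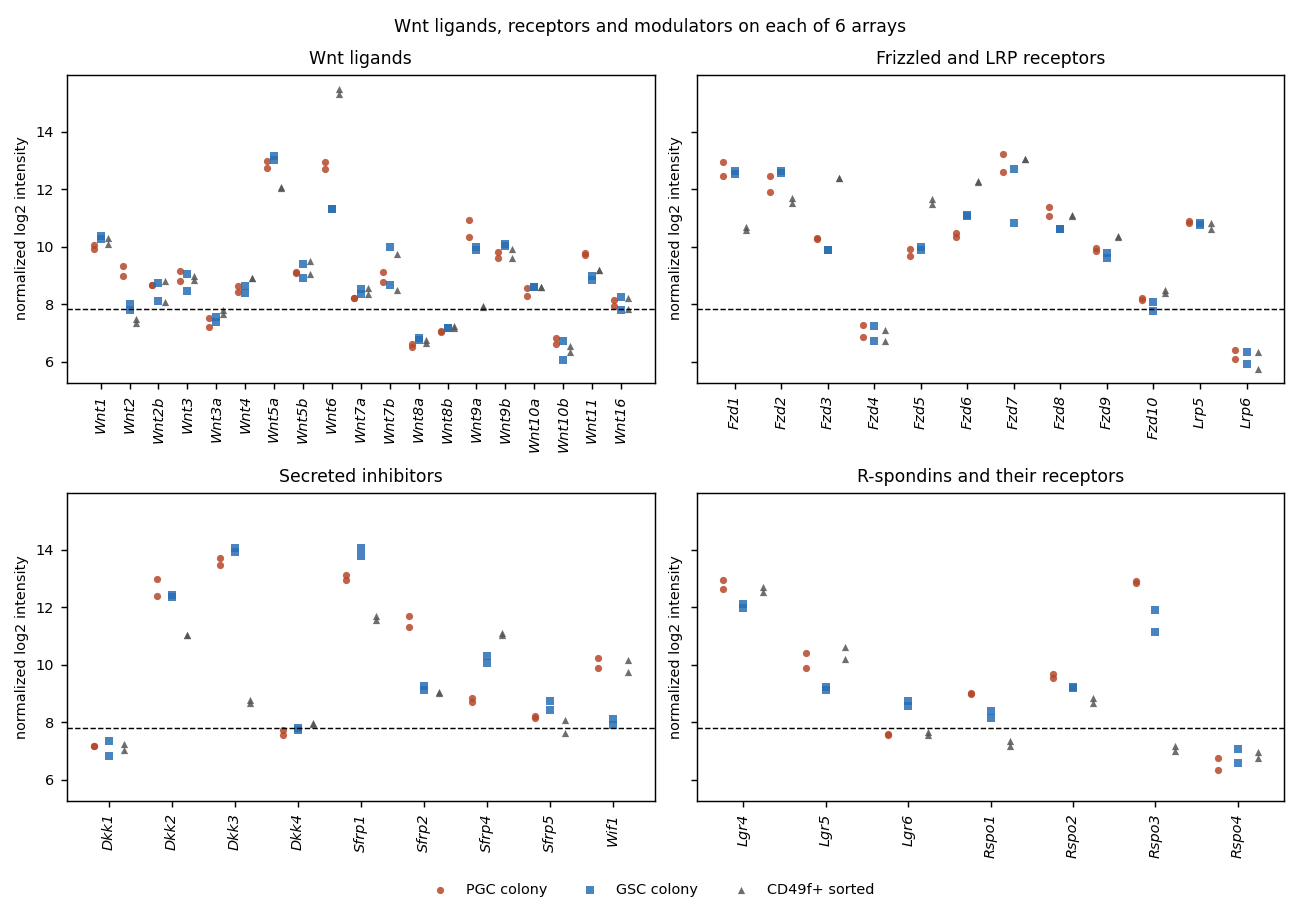
Normalized log2 intensity of all 47 members on each array, by role, for PGC colony (circles), GSC colony (squares) and CD49f+ sorted (triangles), with a dashed line at the 30th percentile of the arrays (7.82). Wnt6 lies highest in sorted cells (15.50 and 15.30), whereas Dkk3 and Rspo3 lie far higher in both colony groups than in sorted cells.

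Among the ligands, Wnt6, Wnt9a, Wnt2 and Wnt5a had the largest changes. Of 15 tested ligands, 3 were higher and none lower in PGC than in GSC colonies, 20.0% against 15.1% of all genes. Against sorted cells, 4 were higher and 2 lower in PGC colonies, 40.0% against 46.0% of all genes. In GSC colonies 3 were higher and 2 lower than in sorted cells, 33.3% against 47.1%. The remaining 9 ligands tested (Wnt1, Wnt2b, Wnt3, Wnt5b, Wnt7a, Wnt7b, Wnt9b, Wnt10a and Wnt16) passed in no comparison.

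Wnt6, an epithelial ligand known from the ureteric bud of the kidney, was far lower in both colony groups than in sorted cells. Its normalized level was 12.69 and 12.93 in PGC colonies, 11.32 and 11.30 in GSC colonies and 15.50 and 15.30 in CD49f+ sorted cells. As deposited, its intensities were 7205 and 8772 in PGC colonies, 2834 and 2881 in GSC colonies and 32720 and 30003 in sorted cells. The 3 groups did not overlap, with sorted cells highest and GSC colonies lowest. The sum of 6 epithelial markers was also highest in sorted cells, at 13040 to 13560. It was 3610 to 3899 in PGC colonies and 2966 to 3689 in GSC colonies, which overlapped, and no epithelial marker passed between these 2 groups. The Sertoli, macrophage, endothelial and Leydig marker sums above were highest in sorted cells too. The part of any of these in the Wnt6 differences was not tested. Wnt6 was 2.83-fold higher in PGC than in GSC colonies (log2 difference 1.50 ± 0.13, SE, limma adjusted p = 0.00095). It was 6.02-fold lower in PGC colonies than in sorted cells (-2.59 ± 0.13, limma adjusted p = 2.5e-05) and 17.0-fold lower in GSC colonies than in sorted cells (-4.09 ± 0.13, limma adjusted p = 4.1e-06). Its neighbour in the genome, Wnt10a, showed none of this, with log2 differences of -0.17 between PGC and GSC colonies, -0.18 between PGC colonies and sorted cells and -0.01 between GSC colonies and sorted cells, none of which passed.

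Wnt9a, a ligand known from joint formation, went the other way. It measured 10.33 and 10.94 in PGC colonies, 10.00 and 9.89 in GSC colonies and 7.93 and 7.89 in sorted cells. Both colony groups lay above the sorted cells without overlap. Wnt9a was 6.59-fold higher in PGC colonies (2.72 ± 0.20, limma adjusted p = 0.0001) and 4.09-fold higher in GSC colonies (2.03 ± 0.20, limma adjusted p = 0.00034) than in sorted cells. The difference of 0.69 between PGC and GSC colonies did not pass (limma adjusted p = 0.073), whereas without PGC colony replicate 1 it was 0.99 (limma adjusted p = 0.0147). In this and every later fit without 1 array, the lone array of its group is assumed to vary like the other groups, which supply the spread.

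The promoters of these 2 ligands are shown because they moved in opposite directions against sorted cells, each as the 250 bases before the transcription start on the plus strand, from RefSeq (GRCm38.p6). Wnt6 lies at chr1:74771642-74771891 and Wnt9a at chr11:59306680-59306929. Capitals mark every match, on either strand, to GGGCGG (the GC box bound by Sp factors), CTTTG (the core of the TCF/LEF site) and ACGTG (the core of the hypoxia response element).
Wnt6: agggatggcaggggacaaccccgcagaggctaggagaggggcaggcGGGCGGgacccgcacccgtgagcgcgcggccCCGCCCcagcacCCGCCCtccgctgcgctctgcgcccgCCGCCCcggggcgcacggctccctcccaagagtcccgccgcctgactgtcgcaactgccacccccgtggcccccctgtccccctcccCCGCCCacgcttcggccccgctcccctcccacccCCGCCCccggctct
Wnt9a: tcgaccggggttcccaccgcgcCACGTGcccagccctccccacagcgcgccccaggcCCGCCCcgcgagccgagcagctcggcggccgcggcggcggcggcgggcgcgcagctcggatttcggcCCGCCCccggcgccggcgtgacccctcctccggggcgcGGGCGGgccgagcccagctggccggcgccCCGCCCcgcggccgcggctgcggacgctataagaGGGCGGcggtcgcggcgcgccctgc
The Wnt6 promoter held 6 GC boxes and neither of the other 2 motifs. The Wnt9a promoter held 5 GC boxes and 2 matches to ACGTG, which overlap in a single palindromic CACGTG. Their GC contents were 79.6% and 84.4%, against a median of 52.4% over all 32851 promoters in the table. RefSeq promoters were found for 30 of the 47 member genes, 33 promoters in all, with a median GC content of 66.8%. GGGCGG occurred in 69.7% of the members' promoters against 32.7% of all, CTTTG in 39.4% against 48.6%, and ACGTG in 21.2% against 16.6%. A match describes letters in this window and is not a bound site.

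Wnt2, a ligand of mesenchyme known from lung specification, measured 9.33 and 8.97 in PGC colonies, 7.82 and 8.02 in GSC colonies and 7.49 and 7.34 in sorted cells. PGC colonies were highest, without overlap. Wnt2 was 2.35-fold higher in PGC than in GSC colonies (1.23 ± 0.16, limma adjusted p = 0.0044). No detection calls were available, so where both arrays of the dimmer group lie under the 30th percentile the change is given as a bound, the brighter group's mean over that percentile. On this basis Wnt2 was at least 2.51-fold higher in PGC colonies than in sorted cells (limma adjusted p = 0.00025). In GSC colonies it was at least 1.07-fold higher (limma adjusted p = 0.042), a call that was lost under 5 of the 15 alternative settings in which it was tested, among them those without either sorted array or GSC colony replicate 2. Wnt2 passed the filter only through colony arrays, so its calls against sorted cells are not independent of the filter.

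Wnt5a, the ligand best known for β-catenin-independent signalling through Ror2, measured 12.75 and 12.99 in PGC colonies, 13.16 and 13.03 in GSC colonies and 12.07 and 12.05 in sorted cells. Both colony groups exceeded the sorted cells, 1.76-fold in PGC colonies (0.81 ± 0.13, limma adjusted p = 0.0024) and 2.05-fold in GSC colonies (1.04 ± 0.13, limma adjusted p = 0.00081). PGC and GSC colonies differed by -0.22, which did not pass (limma adjusted p = 0.29). Wnt11, a ligand of convergent extension movements, was highest in PGC colonies, 0.84 ± 0.11 above GSC colonies (limma adjusted p = 0.0039) and 0.56 ± 0.11 above sorted cells (limma adjusted p = 0.0058). Wnt4 was lower by 0.39 in PGC colonies (limma adjusted p = 0.049) and by 0.41 in GSC colonies (limma adjusted p = 0.043) than in sorted cells, and each call was lost without sorted replicate 1, sorted replicate 2 or GSC colony replicate 1, the first also without PGC colony replicate 2 or GSC colony replicate 2. Without scaling between arrays the Wnt4 difference was 0.02 in PGC colonies and -0.02 in GSC colonies. Both calls were also lost under the replicate block (limma adjusted p = 0.083 in PGC colonies and 0.073 in GSC colonies). Wnt7b differed as much within groups as between them, at 9.13 and 8.78 in PGC colonies, 10.00 and 8.67 in GSC colonies and 8.49 and 9.76 in sorted cells.

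**Figure D2:**
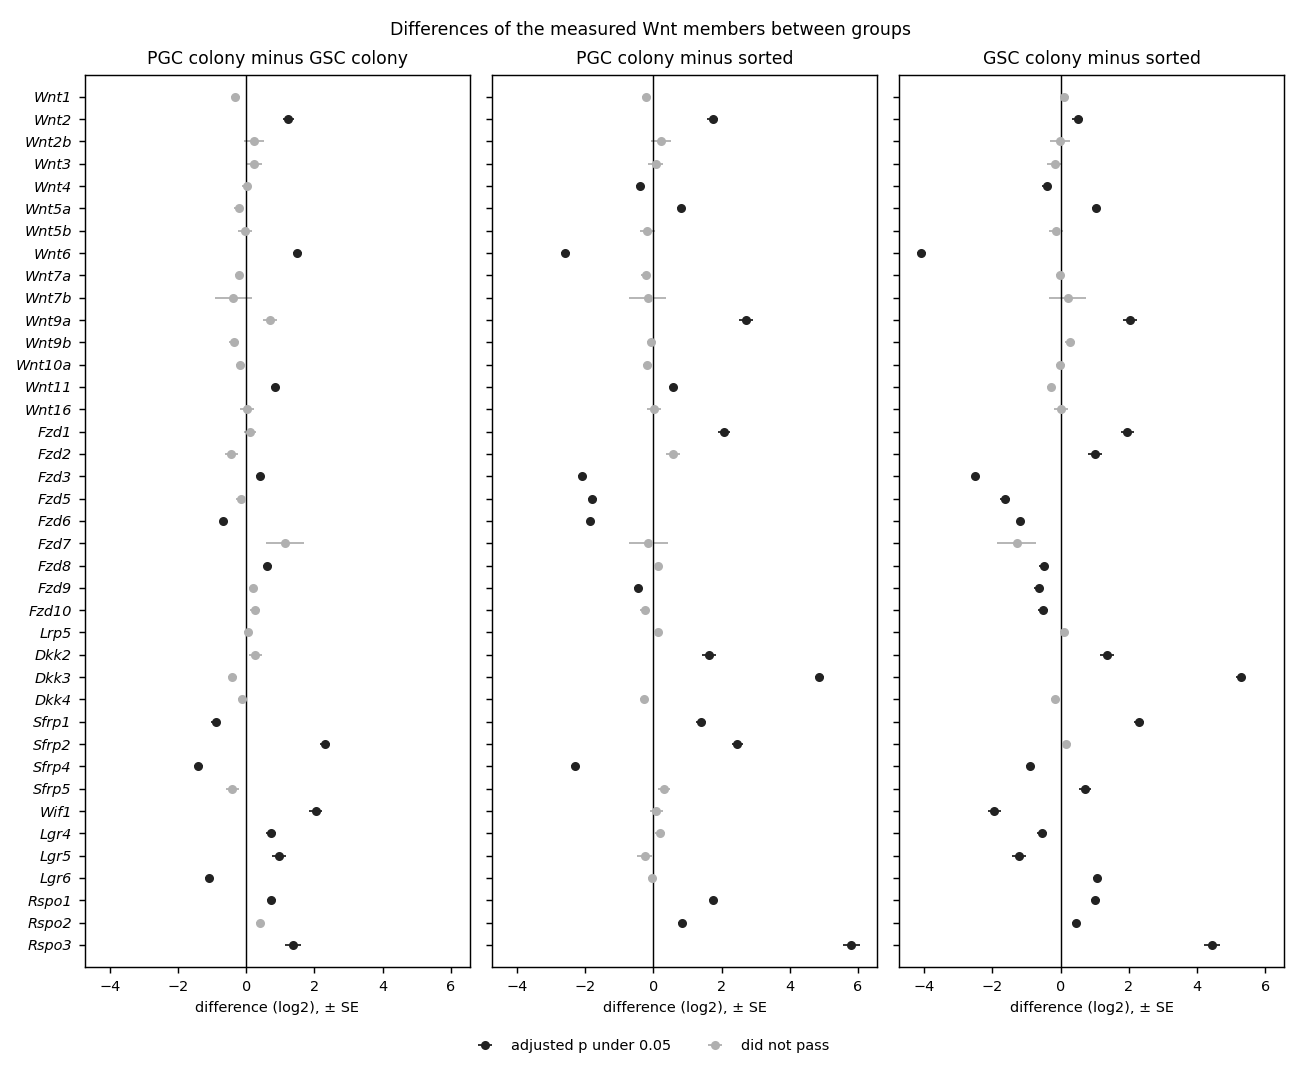
Fitted log2 differences, also where the text gives only a bound (points, with bars of 1 SE from limma), of the 39 tested members for PGC minus GSC colony, PGC colony minus CD49f+ sorted and GSC colony minus CD49f+ sorted, black where the adjusted p was under 0.05 and grey where it was not. Dkk3 and Rspo3 stand furthest right and Wnt6 furthest left against sorted cells, and Sfrp2 (2.31) and Wif1 (2.04) furthest right in PGC minus GSC colony.

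The receptors split by gene rather than moving together. Of 10 tested receptors, 2 were higher and 1 lower in PGC than in GSC colonies, where 15.1% of all genes passed. In PGC colonies 1 was higher and 4 lower than in sorted cells (46.0% of all genes passed), a share near the background. In GSC colonies 2 were higher and 6 lower than in sorted cells (47.1% of all genes passed). By sequence, Fzd1, Fzd2 and Fzd7 form one subfamily, Fzd3 and Fzd6 another, Fzd5 and Fzd8 another, and Fzd4, Fzd9 and Fzd10 the last.

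Fzd3, a receptor needed for axon guidance and planar cell polarity, measured 10.26 and 10.30 in PGC colonies, 9.87 and 9.90 in GSC colonies and 12.38 and 12.39 in sorted cells. It was 4.30-fold lower in PGC colonies (-2.11 ± 0.10, limma adjusted p = 1.9e-05) and 5.66-fold lower in GSC colonies (-2.50 ± 0.10, limma adjusted p = 7.9e-06) than in sorted cells. PGC colonies passed as 0.39 higher than GSC colonies (limma adjusted p = 0.048), a call that was lost under 13 of the 16 alternative settings. Fzd6, its closest relative and also a planar polarity receptor, measured 10.48 and 10.35 in PGC colonies, 11.06 and 11.10 in GSC colonies and 12.24 and 12.28 in sorted cells. The groups did not overlap and their order differed from that of Fzd3, since PGC colonies were lowest. Fzd6 was lower by 0.67 ± 0.11 in PGC than in GSC colonies (limma adjusted p = 0.0097). Against sorted cells it was 3.60-fold lower in PGC colonies (limma adjusted p = 3.7e-05) and 2.27-fold lower in GSC colonies (limma adjusted p = 0.00023).

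Fzd5, a receptor known from yolk sac and eye development, measured 9.66 and 9.91 in PGC colonies, 10.00 and 9.89 in GSC colonies and 11.49 and 11.66 in sorted cells. The colony groups overlapped each other and lay below sorted cells, 3.45-fold in PGC colonies (-1.79 ± 0.14, limma adjusted p = 0.00011) and 3.09-fold in GSC colonies (-1.63 ± 0.14, limma adjusted p = 0.00015). Its 2 other probes also passed, with differences of -0.97 and -0.91 in PGC colonies and -0.91 and -1.11 in GSC colonies against sorted cells. In the fit over all probes, 42.6% passed between PGC colonies and sorted cells and 43.5% between GSC colonies and sorted cells. Fzd8, its subfamily relative, was higher by 0.62 in PGC than in GSC colonies (limma adjusted p = 0.028), a call lost without any 1 of the arrays other than PGC colony replicate 2. It was lower by 0.49 in GSC colonies than in sorted cells (limma adjusted p = 0.023), and that call was lost without any 1 GSC colony or sorted array, while without scaling between arrays the difference was 0.04. Fzd9 was lower by 0.45 in PGC colonies and by 0.65 in GSC colonies than in sorted cells (limma adjusted p = 0.022 and 0.0049). The PGC colony call for Fzd9 was lost without either sorted array or PGC colony replicate 2, and without scaling between arrays the differences were -0.004 in PGC colonies and -0.154 in GSC colonies. Fzd10 was lower by 0.52 in GSC colonies than in sorted cells (limma adjusted p = 0.024), a call lost without either sorted array or GSC colony replicate 1, and without scaling between arrays the difference was -0.19.

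Fzd1 rose in both colony groups. It measured 12.95 and 12.46 in PGC colonies, 12.53 and 12.64 in GSC colonies and 10.68 and 10.57 in sorted cells, so colonies overlapped each other and lay clear of the sorted cells. The change was 4.24-fold in PGC colonies (2.08 ± 0.18, limma adjusted p = 0.00018) and 3.89-fold in GSC colonies (1.96 ± 0.18, limma adjusted p = 0.00022). Its relative Fzd2 measured 12.46 and 11.89 in PGC colonies, 12.58 and 12.64 in GSC colonies and 11.51 and 11.69 in sorted cells. Fzd2 was 2.01-fold higher in GSC colonies than in sorted cells (1.00 ± 0.20, limma adjusted p = 0.0066), and its difference of 0.57 in PGC colonies did not pass (limma adjusted p = 0.055) but did under 8 of the 16 alternative settings. Between PGC and GSC colonies its difference of -0.43 did not pass (limma adjusted p = 0.21), and only with the lone PGC colony replicate 2 did it pass, at -0.72 (limma adjusted p = 0.0355). A second Fzd2 probe read 11.47 and 11.60 in PGC colonies, 8.58 and 12.10 in GSC colonies and 9.55 and 9.46 in sorted cells. It passed in no comparison, including that of PGC with GSC colonies, in which 13.5% of all probes passed. With the mean of its probes the Fzd2 call was lost (limma adjusted p = 0.205).

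Fzd7, the third of that subfamily, measured 12.60 and 13.22 in PGC colonies, 10.84 and 12.70 in GSC colonies and 13.05 and 13.07 in sorted cells. The GSC colony arrays disagreed with each other by more than 1 on the log2 scale, and no Fzd7 difference passed. They were 1.14 ± 0.56 between PGC and GSC colonies (limma adjusted p = 0.24), -0.14 between PGC colonies and sorted cells (limma adjusted p = 0.87) and -1.29 between GSC colonies and sorted cells (limma adjusted p = 0.11). Without GSC colony replicate 2, Fzd7 was 2.07 higher in PGC than in GSC colonies (limma adjusted p = 0.00036) and 2.21 lower in GSC colonies than in sorted cells (limma adjusted p = 6.97e-05). Those p-values take their spread from the other groups and so leave out the disagreement between the GSC colony arrays. Among the members tested, Fzd7 and Wnt7b in GSC colonies and Wnt7b in sorted cells were the only ones to differ by more than 1 between the arrays of a group. The median absolute difference between the arrays of a group over the members was 0.216 in PGC colonies, 0.137 in GSC colonies and 0.157 in sorted cells, against 0.200, 0.116 and 0.125 over all genes tested. The co-receptor Lrp5 passed in no comparison, with differences of 0.05 to 0.14.

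**Figure D3:**
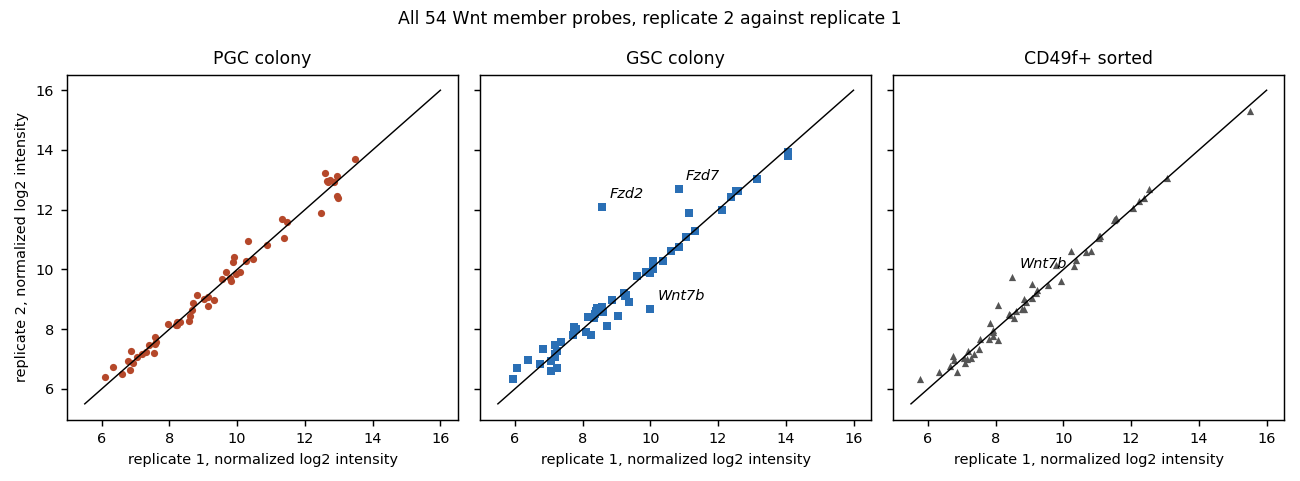
Replicate 2 against replicate 1 for all 54 member probes in PGC colony, GSC colony and CD49f+ sorted arrays, in normalized log2 intensity, with the line of equality. The named probes differ by more than 1 between the arrays: Fzd7, Wnt7b and a second Fzd2 probe in GSC colony, and Wnt7b in CD49f+ sorted.

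Among the secreted inhibitors, Dkk3 had the largest changes against sorted cells, and Sfrp2 and Wif1 the largest between PGC and GSC colonies. Of 8 tested inhibitors, 2 were higher and 2 lower in PGC than in GSC colonies, where 15.1% of all genes passed. In PGC colonies 4 were higher and 1 lower than in sorted cells (46.0% of all genes passed). In GSC colonies 4 were higher and 2 lower than in sorted cells (47.1% of all genes passed).

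Dkk3, a divergent Dickkopf protein that lacks the Lrp6 inhibition typical of Dkk1, measured 13.47 and 13.71 in PGC colonies, 14.07 and 13.94 in GSC colonies and 8.78 and 8.67 in sorted cells. As deposited, its intensities were 12374 and 14925 in PGC colonies, 20407 and 19044 in GSC colonies and 297 and 281 in sorted cells. Both colony groups lay far above the sorted cells. Dkk3 was 29.1-fold higher in PGC colonies (4.86 ± 0.13, limma adjusted p = 4.0e-06) and 38.7-fold higher in GSC colonies (5.28 ± 0.13, limma adjusted p = 2.3e-06) than in sorted cells. PGC and GSC colonies differed by -0.41, which did not pass (limma adjusted p = 0.089). The fibroblast marker sum above was likewise higher in both colony groups than in sorted cells, and its part in this difference was not tested. Dkk2, which binds Lrp5 and Lrp6, measured 12.97 and 12.38 in PGC colonies, 12.38 and 12.44 in GSC colonies and 11.05 and 11.05 in sorted cells. It was 3.09-fold higher in PGC colonies (1.63 ± 0.20, limma adjusted p = 0.00079) and 2.56-fold higher in GSC colonies (1.36 ± 0.20, limma adjusted p = 0.0017) than in sorted cells. PGC and GSC colonies overlapped, with a difference of 0.27 that did not pass (limma adjusted p = 0.41). Only with the lone PGC colony replicate 1 against the GSC colonies did it pass, at 0.56 (limma adjusted p = 0.0431). Dkk4 lay under the 30th percentile on both PGC colony arrays and passed in no comparison, although it did between PGC colonies and sorted cells without PGC colony replicate 2.

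The Sfrp genes, whose products bind Wnt ligands through a Frizzled-like domain, differed from one another. Sfrp1 measured 12.94 and 13.12 in PGC colonies, 14.05 and 13.80 in GSC colonies and 11.55 and 11.71 in sorted cells, with GSC colonies highest and no overlap. It was lower by 0.90 ± 0.14 in PGC than in GSC colonies (limma adjusted p = 0.0089). Against sorted cells it was 2.64-fold higher in PGC colonies (1.40 ± 0.14, limma adjusted p = 0.00036) and 4.91-fold higher in GSC colonies (2.30 ± 0.14, limma adjusted p = 4.1e-05).

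Sfrp2 measured 11.32 and 11.70 in PGC colonies, 9.28 and 9.13 in GSC colonies and 9.07 and 9.03 in sorted cells. PGC colonies stood alone above the other groups. Sfrp2 was 4.95-fold higher in PGC than in GSC colonies (2.31 ± 0.15, limma adjusted p = 0.00032) and 5.51-fold higher in PGC colonies than in sorted cells (2.46 ± 0.15, limma adjusted p = 4.9e-05). GSC colonies and sorted cells differed by 0.16, which did not pass (limma adjusted p = 0.45).

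Sfrp4, an inhibitor best known from bone, ran opposite to Sfrp2. It measured 8.70 and 8.86 in PGC colonies, 10.08 and 10.29 in GSC colonies and 11.04 and 11.12 in sorted cells. The groups did not overlap, with PGC colonies lowest. Sfrp4 was 2.65-fold lower in PGC than in GSC colonies (-1.40 ± 0.13, limma adjusted p = 0.001). Against sorted cells it was 4.92-fold lower in PGC colonies (-2.30 ± 0.13, limma adjusted p = 3.3e-05) and 1.86-fold lower in GSC colonies (-0.90 ± 0.13, limma adjusted p = 0.0016), of which the GSC colony call was lost without scaling between arrays. Sfrp5 was higher by 0.72 in GSC colonies than in sorted cells (limma adjusted p = 0.018), a call lost when GSC colony replicate 2 or sorted replicate 2 was left out.

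Wif1, an inhibitor that binds Wnt ligands through its WIF domain, measured 9.88 and 10.23 in PGC colonies, 8.12 and 7.91 in GSC colonies and 9.77 and 10.16 in sorted cells. GSC colonies lay below both other groups, which overlapped. Wif1 was 4.11-fold higher in PGC than in GSC colonies (2.04 ± 0.19, limma adjusted p = 0.0012) and 3.86-fold lower in GSC colonies than in sorted cells (-1.95 ± 0.19, limma adjusted p = 0.00031). PGC colonies and sorted cells differed by 0.09, which did not pass (limma adjusted p = 0.75).

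The promoters of Sfrp2 and Wif1 are shown because these 2 members had the largest rises in PGC over GSC colonies. Sfrp2 lies at chr3:83766071-83766320 and Wif1 at chr10:121033754-121034003, both on the plus strand of GRCm38.p6 (RefSeq), with the same 3 motifs in capitals.
Sfrp2: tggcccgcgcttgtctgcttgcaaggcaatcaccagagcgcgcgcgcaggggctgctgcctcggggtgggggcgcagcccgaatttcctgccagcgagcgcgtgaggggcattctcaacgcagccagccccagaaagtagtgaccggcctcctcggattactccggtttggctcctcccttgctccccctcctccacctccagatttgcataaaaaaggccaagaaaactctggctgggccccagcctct
Wif1: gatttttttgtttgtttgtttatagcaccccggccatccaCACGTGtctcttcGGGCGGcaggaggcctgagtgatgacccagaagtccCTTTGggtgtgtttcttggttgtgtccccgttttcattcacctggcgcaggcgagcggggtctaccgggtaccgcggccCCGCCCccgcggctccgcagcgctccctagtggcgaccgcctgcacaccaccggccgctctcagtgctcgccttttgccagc
The Sfrp2 promoter held none of the 3 motifs. The Wif1 promoter held 2 GC boxes, 1 CTTTG and 2 matches to ACGTG that overlap in a single CACGTG. Their GC contents were 63.6% and 62.8%.

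In the R-spondin axis, Rspo1, Rspo2 and Rspo3 were higher in both colony groups than in sorted cells. Lgr4 and Lgr5 were lowest in GSC colonies, and Lgr6 was highest there. Of 6 tested genes, 4 were higher and 1 lower in PGC than in GSC colonies, where 15.1% of all genes passed. In PGC colonies 3 were higher and none lower than in sorted cells (46.0% of all genes passed), a share near the background. In GSC colonies 4 were higher and 2 lower than in sorted cells (47.1% of all genes passed).

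Rspo3, an R-spondin needed for placental and vascular development, measured 12.85 and 12.92 in PGC colonies, 11.14 and 11.89 in GSC colonies and 7.17 and 7.00 in sorted cells. As deposited, its intensities were 8045 and 8721 in PGC colonies, 2504 and 4402 in GSC colonies and 66.6 and 44.0 in sorted cells. It was bright in colonies and under the 30th percentile in sorted cells. Rspo3 passed the filter only through the colony arrays, so its calls against sorted cells are not independent of the filter. Rspo3 was at least 33.5-fold higher in PGC colonies (limma adjusted p = 1.1e-05) and at least 12.9-fold higher in GSC colonies (limma adjusted p = 2.7e-05) than in sorted cells. It was 2.59-fold higher in PGC than in GSC colonies (1.37 ± 0.24, limma adjusted p = 0.014), but this call was lost without PGC colony replicate 1 or 2 (limma adjusted p = 0.0691 and 0.0878).

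Rspo1 measured 9.03 and 9.00 in PGC colonies, 8.16 and 8.40 in GSC colonies and 7.36 and 7.18 in sorted cells, with no overlap. It was at least 2.29-fold higher in PGC colonies (limma adjusted p = 0.0001) and at least 1.37-fold higher in GSC colonies (limma adjusted p = 0.0011) than in sorted cells. Rspo1 too passed the filter only through the colony arrays, so these 2 calls are not independent of the filter. PGC colonies exceeded GSC colonies by 0.74 ± 0.13 (limma adjusted p = 0.014), a call lost without PGC colony replicate 1, PGC colony replicate 2 or GSC colony replicate 1. Rspo2, an R-spondin of limb and lung development, was higher than in sorted cells by 0.85 ± 0.12 in PGC colonies (limma adjusted p = 0.0015) and by 0.45 in GSC colonies (limma adjusted p = 0.021). The Rspo2 call in GSC colonies was lost without either GSC colony array or sorted replicate 2.

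Lgr6, a receptor that marks stem cells of the skin, measured 7.60 and 7.57 in PGC colonies, 8.58 and 8.76 in GSC colonies and 7.55 and 7.68 in sorted cells. It was above the 30th percentile in GSC colonies alone and passed the filter only through those arrays. Its calls are therefore not independent of the filter. Lgr6 was at least 1.80-fold lower in PGC than in GSC colonies (limma adjusted p = 0.0021) and at least 1.80-fold higher in GSC colonies than in sorted cells (limma adjusted p = 0.00056). Lgr5, the marker of intestinal stem cells, measured 9.89 and 10.41 in PGC colonies, 9.25 and 9.12 in GSC colonies and 10.21 and 10.60 in sorted cells. GSC colonies were lowest and the other groups overlapped. Lgr5 was 2.34-fold lower in GSC colonies than in sorted cells (-1.23 ± 0.21, limma adjusted p = 0.0038). It was higher by 0.97 ± 0.21 in PGC than in GSC colonies (limma adjusted p = 0.029), which was lost without PGC colony replicate 2 (limma adjusted p = 0.106). Lgr4, the widely expressed member of the family, was higher by 0.74 ± 0.14 in PGC than in GSC colonies (limma adjusted p = 0.02) and lower by 0.55 in GSC colonies than in sorted cells (limma adjusted p = 0.021). The Lgr4 call between PGC and GSC colonies was lost without PGC colony replicate 2 or GSC colony replicate 2. The call between GSC colonies and sorted cells was lost under median centring, without either sorted array and without GSC colony replicate 2, and the difference was 0.03 without scaling between arrays.

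A list of 66 other genes of the pathway, of which 61 were tested, and a list of 21 known Wnt targets, of which 19 were tested, were set beside the members. The lists share 7 genes. Of the pathway genes, 12 were higher and 3 lower in PGC than in GSC colonies, 24.6% against 15.1% of all genes. In PGC colonies against sorted cells, 24 were higher and 11 lower, 57.4% against 46.0%. In GSC colonies against sorted cells, 16 were higher and 12 lower, 45.9% against 47.1%. The medians were 0.17, 0.32 and 0.10 in these comparisons, and 0.16, 0.31 and 0.10 with dim genes at their bounds. With the arrays left unscaled, 38 pathway genes were higher and 5 lower in PGC colonies and 37 higher and 7 lower in GSC colonies than in sorted cells, beside the shares of all genes given above for that setting (49.0% and 11.9% in PGC colonies, 52.9% and 11.2% in GSC colonies).

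**Figure D4:**
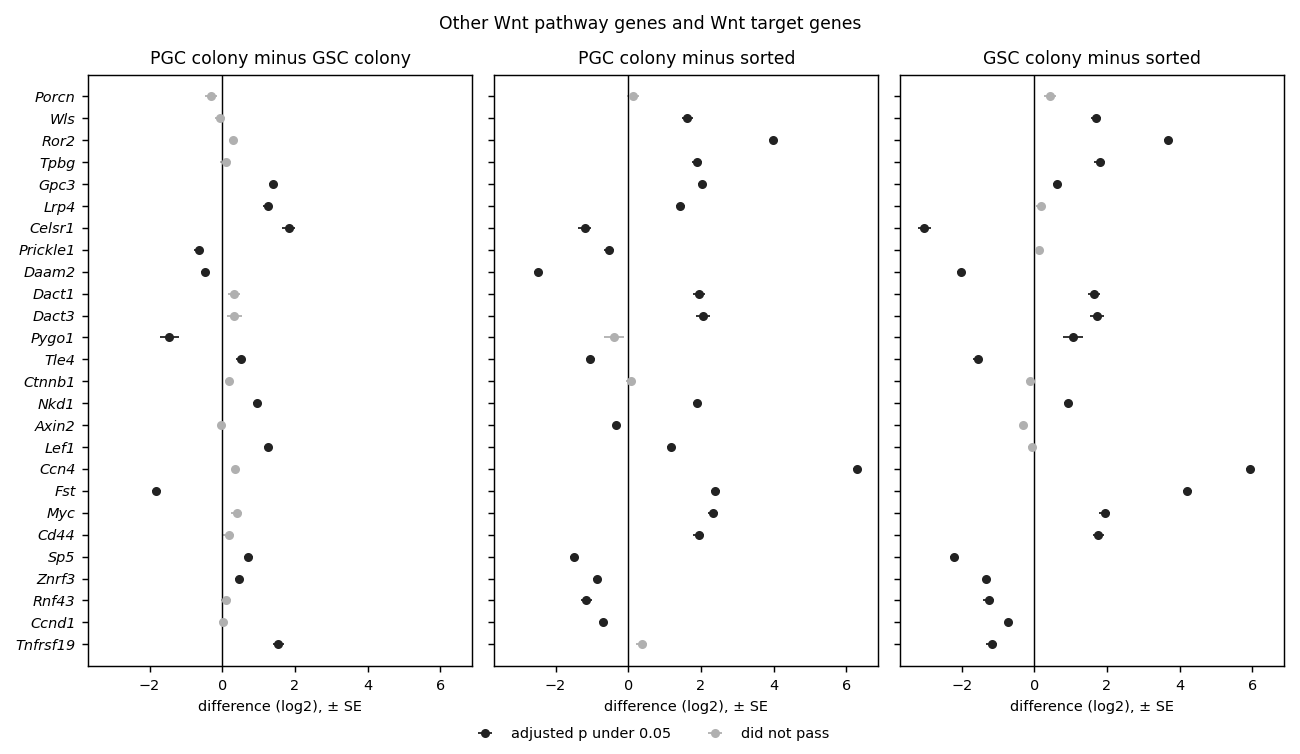
Fitted log2 differences, also where the text gives only a bound (points, with bars of 1 SE from limma), of the named pathway and target genes for PGC minus GSC colony, PGC colony minus CD49f+ sorted and GSC colony minus CD49f+ sorted, black where the adjusted p was under 0.05 and grey where it was not. Ccn4 and Ror2 stand furthest right in PGC colonies against sorted cells, while Celsr1 and Daam2 lie left of 0 in both comparisons with sorted cells.

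Ligand secretion genes behaved unequally. Wls, the carrier that takes Wnt proteins to the cell surface, measured 15.64 and 15.51 in PGC colonies, 15.72 and 15.57 in GSC colonies and 13.79 and 14.10 in sorted cells, a rise of 1.62 ± 0.14 in PGC colonies (limma adjusted p = 0.00021) and 1.69 ± 0.14 in GSC colonies (limma adjusted p = 0.00017). Porcn, the enzyme that acylates Wnt proteins, passed in no comparison. Ror2, the Wnt5a receptor, measured 12.59 and 12.71 in PGC colonies, 12.40 and 12.29 in GSC colonies and 8.65 and 8.68 in sorted cells. It was 15.8-fold higher in PGC colonies (limma adjusted p = 4.1e-06) and 12.8-fold higher in GSC colonies (limma adjusted p = 3.3e-06) than in sorted cells.

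Also higher than in sorted cells were Dact3, a Dishevelled-binding protein (2.06 in PGC colonies and 1.72 in GSC colonies), and the glypican Gpc3 (2.03 and 0.62). So were Dact1 (1.96 in PGC colonies and 1.65 in GSC colonies) and the surface protein Tpbg (1.89 and 1.80). Lower than in sorted cells were Celsr1, a planar polarity cadherin (-1.20 in PGC colonies and -3.03 in GSC colonies), the formin Daam2 (-2.49 in PGC colonies and -2.01 in GSC colonies) and the co-repressor Tle4 (-1.05 in PGC colonies and -1.56 in GSC colonies). All of these passed. Znrf3 and Rnf43, the ligases that R-spondins counteract, were also lower in colonies. Znrf3 differed by -0.87 in PGC colonies (limma adjusted p = 0.00077) and -1.32 in GSC colonies (limma adjusted p = 0.00012), and Rnf43 fell at least 1.71-fold in PGC colonies (limma adjusted p = 0.001) and at least 1.70-fold in GSC colonies (limma adjusted p = 0.00069). Rnf43 passed the filter only through the sorted arrays, so its calls are not independent of the filter. Both ligase genes are also targets of the pathway. Between PGC and GSC colonies, the largest fitted rises were those of Celsr1 (1.83), Gpc3 (1.40), Lrp4 (1.25) and Lef1. For Lef1 a rise of at least 1.12-fold is all that holds, so its place in this order is not fixed, and Cthrc1, a secreted Wnt cofactor, followed with 1.25. The falls were those of Pygo1 (-1.46), Prickle1 (-0.65) and Daam2 (-0.47). Pygo1, a β-catenin co-activator, lost its call without PGC colony replicate 1, when no pathway gene was lower in PGC than in GSC colonies. The Daam2 call was lost without any 1 of the 6 arrays, and that of Prickle1 without PGC colony replicate 1, GSC colony replicate 1 or either sorted array.

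Targets of β-catenin moved in both directions. Of 19 tested, 5 were higher and 1 lower in PGC than in GSC colonies, 31.6% against 15.1% of all genes. Against sorted cells, 8 were higher and 6 lower in each colony group. Over all genes 46.0% passed in PGC colonies and 47.1% in GSC colonies, beside 73.7% of targets in both comparisons. Their medians were 0.18, 0.37 and -0.08 for PGC against GSC colonies, PGC colonies against sorted cells and GSC colonies against sorted cells, and 0.16, 0.16 and -0.08 with dim genes at their bounds. Ccn4, a matricellular protein first found as a Wnt-induced gene, measured 14.32 and 14.27 in PGC colonies, 13.93 and 13.93 in GSC colonies and 7.96 and 8.03 in sorted cells. Its log2 difference from sorted cells was 6.30 ± 0.10 in PGC colonies (limma adjusted p = 3.3e-06) and 5.94 ± 0.10 in GSC colonies (limma adjusted p = 1.9e-06). Fst, the activin antagonist follistatin, was at least 2.73-fold higher in PGC colonies and at least 9.62-fold higher in GSC colonies than in sorted cells, and it was lower by 1.81 in PGC than in GSC colonies. Myc was higher by 2.33 in PGC colonies and by 1.94 in GSC colonies, and the adhesion receptor Cd44 was at least 2.71-fold higher in PGC colonies and at least 2.39-fold higher in GSC colonies. All these differences passed. Fst and Cd44 passed the filter only through the colony arrays, so their calls against sorted cells are not independent of the filter.

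In the other direction, Sp5, a transcription factor induced directly by β-catenin, lay below sorted cells by at least 2.25-fold in PGC colonies (limma adjusted p = 0.00014) and likewise by at least 2.25-fold in GSC colonies (limma adjusted p = 2.7e-05). Ccnd1, cyclin D1, was lower by 0.70 in PGC colonies and by 0.71 in GSC colonies. Both calls were lost without scaling between arrays (limma adjusted p = 0.214 and 0.302). Tnfrsf19 was lower by 1.18 in GSC colonies, while its difference of 0.36 in PGC colonies did not pass (limma adjusted p = 0.088). In PGC over GSC colonies, Tnfrsf19 (1.54), Lef1 and the feedback inhibitor Nkd1 (0.96) were higher. Sp5 also passed there, but it lay under the 30th percentile on all colony arrays and no size is given. It passed the filter only through the sorted arrays, so its calls against sorted cells are not independent of the filter. Lef1, which encodes a TCF/LEF factor, measured 8.00 and 7.96 in PGC colonies, 6.68 and 6.77 in GSC colonies and 6.82 and 6.79 in sorted cells. Lef1 was above the 30th percentile in PGC colonies alone and passed the filter only through those arrays. Its calls are therefore not independent of the filter. Axin2, the target most often used as a readout of the β-catenin branch, measured 10.04 and 9.93 in PGC colonies, 9.99 and 10.02 in GSC colonies and 10.28 and 10.34 in sorted cells. Its difference of -0.33 between PGC colonies and sorted cells passed (limma adjusted p = 0.046) but was lost under 10 of 16 alternative settings, and its difference of -0.30 between GSC colonies and sorted cells did not pass (limma adjusted p = 0.057). Ctnnb1, β-catenin itself, measured 15.19 and 15.40 in PGC colonies, 15.13 and 15.08 in GSC colonies and 15.23 and 15.24 in sorted cells and passed in no comparison.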

How the data were processed

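Single-colour arrays of 6 RNA samples were read from the table of probe values that the authors deposited, in linear intensity units per the values themselves. Their medians differ between arrays and some probes lie below 0, so background had been subtracted and arrays were taken as not yet scaled to each other. The sources used here do not give the scanner, the background method or the genome build. Probe names came from the platform annotation, in which 21876 probes had a gene symbol and 4547 had none. The members and gene lists were chosen with earlier results of these data known.

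Intensities were corrected with normexp (offset 50), taken to log2 and quantile normalized with limma 3.58.1 in R 4.3.3. The probe with the highest average signal stood for its gene, and a gene was tested when 2 or more of the 6 arrays reached the 30th percentile of that array. All 3 groups entered 1 limma fit (lmFit, then eBayes) with a coefficient for each group, which left 3 residual degrees of freedom, with Benjamini-Hochberg adjustment over 15459 genes and a threshold of 0.05. The median SE was 0.134 on the log2 scale, and 2 arrays a group limit the precision. Errors are SE from this fit. The test was also run on simulated data, and its outcome there is not reported here.

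Array values are given for members that passed with at least a 2-fold difference in any comparison and for the highest level of each role. From each list, up to 4 genes with the largest rise and 4 with the largest fall were named, plus Axin2, Lef1, Ctnnb1, Porcn and Wls. Fzd7 and Wnt7b, given by array, and Cthrc1, Emcn, Zbtb16, Dazl and Id4 were chosen after their values were seen. The alternatives were 2 background settings, 2 scalings, 2 filters, the mean of a gene's probes, fits of only the 2 groups compared, a replicate block, robust moderation with a trend, and leaving out each of the 6 arrays, 16 settings in all. A crossed replicate block was added after seeing the data.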

Additional observations from a re-analysis of the deposited data

How the results depend on the processing

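Under every one of the 16 alternatives in which it was tested, the call held for 9 of 15 members called between PGC and GSC colonies, 17 of 19 between PGC colonies and sorted cells and 15 of 25 between GSC colonies and sorted cells. Of these, Wnt2 and Rspo1 were tested under 15 alternatives and Lgr6 under 13, since dim genes fail some filters. Lgr6 was not tested when either GSC colony array was left out, since it passed the filter only through those arrays. Whether its calls depend on a single GSC colony array was therefore not checked. Without scaling between arrays, 6 members were lower in GSC colonies than in sorted cells, and 3 targets were lower in PGC colonies. Pathway genes split into 38 higher and 5 lower in PGC colonies and 37 higher and 7 lower in GSC colonies. Over all genes, 49.0% were higher and 11.9% lower in PGC colonies, and 52.9% higher and 11.2% lower in GSC colonies. Under that setting the sign changed for Axin2 (0.116), Prickle1 (0.028) and Wnt4 (0.015) in PGC colonies and for Ctnnb1 (0.627), Fzd8 (0.043), Lgr4 (0.027) and Wnt7a (0.351) in GSC colonies, all against sorted cells, where the median gene itself was 0.423 and 0.465 higher in PGC and GSC colonies. A filter at the array median, which tests fewer genes, left 3 targets higher in PGC over GSC colonies, 4 in PGC colonies over sorted cells and 5 in GSC colonies over sorted cells. Under that filter 9.04%, 26.4% and 26.2% of all genes were higher in these comparisons. With only the groups compared in the fit, 1 pathway gene was lower in PGC than in GSC colonies, and all genes called between these groups numbered 1601 rather than 2329.

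The labels name no pairing of arrays by replicate number. Differences between replicates 1 and 2 correlated at -0.179 between PGC and GSC colonies and at 0.326 between PGC colonies and sorted cells. Between GSC colonies and sorted cells they correlated at -0.342. Whether arrays of different groups belong together was not tested. With the replicate block, 9 members were higher and 4 lower in PGC than in GSC colonies, and 1 pathway gene was lower. Over all genes 4.88% were higher and 6.16% lower there, against 7.08% and 7.98% in the main fit. In PGC colonies against sorted cells 12 members were higher and 6 lower (21.2% and 21.7% of all genes). In GSC colonies against sorted cells 12 were higher and 11 lower (21.3% and 22.7%). Crossing the GSC colony numbers, chosen after seeing the data, gave 11 and 4, 13 and 7, and 13 and 12 in the same order of comparisons. Over all genes the shares were then 8.18% and 9.31%, 24.5% and 25.2%, and 24.4% and 26.3%.

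Leaving out 1 array at a time gave, for PGC against GSC colonies, 7 to 9 members higher and 3 to 5 lower, 6 to 10 pathway genes higher and 0 to 3 lower, and 3 to 6 targets higher and 1 lower. The lowest counts for PGC over GSC members and pathway genes came without PGC colony replicate 2, and no lower pathway gene remained without PGC colony replicate 1. For PGC colonies against sorted cells the ranges were 12 to 13 and 5 to 7 members, 18 to 26 and 4 to 12 pathway genes, and 7 to 9 and 2 to 6 targets. For GSC colonies against sorted cells they were 9 to 13 and 8 to 12 members, 14 to 19 and 7 to 14 pathway genes, and 7 to 8 and 3 to 7 targets. The low counts of lower genes against sorted cells came when sorted replicate 1 or 2 was left out. The share of all genes called lower fell in those fits as well. Without PGC colony replicate 2, the share of all genes higher in PGC than in GSC colonies also fell. The cause of these changes was not tested, and members under the 30th percentile had no usable signal to compare.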

Other observations

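Mouse Wnt genes often lie side by side, and 4 neighbouring pairs were found among the members by gene order in the RefSeq annotation of GRCm38.p6. They are Wnt6 with Wnt10a on chromosome 1, Wnt3a with Wnt9a and Wnt9b with Wnt3 on chromosome 11, and Wnt10b with Wnt1 on chromosome 15. Wnt6 changed in all 3 comparisons and Wnt10a passed in none. Wnt3a was under the 30th percentile on all 6 arrays while Wnt9a was higher in both colony groups than in sorted cells, and Wnt9b, Wnt3 and Wnt1 passed in no comparison.

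The Wnt antagonist Frzb, a close relative of the Sfrp genes, measured 13.56 and 14.10 in PGC colonies, 13.03 and 12.77 in GSC colonies and 12.46 and 12.63 in sorted cells. It was higher by 0.93 in PGC than in GSC colonies (limma adjusted p = 0.03) and by 1.29 in PGC colonies than in sorted cells (limma adjusted p = 0.0027), and its difference of 0.36 between GSC colonies and sorted cells did not pass (limma adjusted p = 0.21). Its direction in PGC over GSC colonies was that of Sfrp2 and opposite to that of Sfrp1 and Sfrp4. Frzb was picked here after its values were seen.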
